A study of Rattus norvegicus with 9 samples.

Results

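The genes described here encode the proteasome, its activators and the chaperones that assemble it, in kidneys of wild-type Sprague-Dawley rats. They were taken as the genes of the deposited FPKM table whose symbol starts with Psm, then one of the letters a to g and a digit, leaving out the interferon-inducible subunits Psmb8 and Psmb9. The rule, which uses no measured value, found 43 of the table's 11235 genes, and all 43 entered the test across 17335 genes. Of these, 40 encode proteasome subunits, activators, the regulator PI31 or assembly chaperones. The other 3 match by name only: Psmc3ip encodes a meiotic recombination factor, Psme3ip1 a protein that binds the activator PA28 gamma, and Psme1-ps1 is a pseudogene in the RefSeq annotation although the table lists it as protein coding. Psma8, Psmb10, Psmb11, Psmd9, Psmd10 and Psme3 were not analysed here.

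The proteasome degrades proteins that carry ubiquitin chains. Its core particle is a stack of alpha rings, which gate the entrance, and beta rings, which hold the proteolytic sites. The regulatory particle caps the core, and its ring of ATPases unfolds the substrate while its non-ATPase subunits bind ubiquitin and remove it. In mammalian cells the transcription factor Nrf1, encoded by Nfe2l1, is known to activate the subunit genes together when proteasome activity is short. Rapamycin blocks mTOR complex 1, a growth-promoting kinase that also holds back autophagy, the other main route of protein breakdown in kidney tubules.

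The study compared 3 groups of 3 libraries: ischaemia/reperfusion (I/R) with rapamycin, I/R alone, and sham operation. Ischaemia lasted 45 min. Rats were 6 to 8 weeks old. The submitters' accounts differ on the treatment: one gives male rats and intraperitoneal rapamycin at 1 mg/kg/day, while the other gives both sexes, gavage from the day before surgery, 1 or 2 mg/kg/day and 3 or 7 days of reperfusion. Which of these regimens the sequenced kidneys had is therefore not settled here. Nothing states that the 3 libraries of a group came from separate animals, so the p-values measure only the spread between libraries. All libraries carry the same batch label.

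Libraries held 44582251 to 60538627 counted reads. The samples are labelled as renal tubular cells of kidney tissue. All 5 proximal tubule markers and all 5 markers of later nephron segments were in the FPKM table, but so were all 5 podocyte and all 5 endothelial markers, 5 of 8 leukocyte markers and 3 of 4 erythrocyte markers. The libraries thus carry RNA of whole tissue, in which fewer cells of a type and less RNA per cell cannot be told apart. The library I/R 1 stood apart for the proteasome genes, and values without it are given below. Summed FPKM of 8 immediate early and heat shock genes spanned 91.9 to 117 in I/R + rapamycin, 107 to 521 in I/R and 165 to 1040 in sham libraries. On that list I/R 1, at 107, lay within the range of the rapamycin libraries and the other I/R and sham libraries above it. The 3 measured erythrocyte genes summed to 23.8 to 153 FPKM in I/R + rapamycin, 382 to 997 in I/R and 70.7 to 755 in sham libraries. The part of stress or blood transcripts in the results below was not tested.

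Proteasome genes were well expressed throughout. FPKM values are per transcript length, so levels can be set beside each other between genes as far as the length used for each gene is right. Averaged over the 9 libraries, the 7 genes of the alpha ring ranged between 22.0 FPKM for Psma2 and 76.3 FPKM for Psma4. The 7 constitutive beta ring genes ranged between 15.8 FPKM for Psmb3 and 80.4 FPKM for Psmb4, which was the highest of all members. Every ring holds its subunits in equal number, yet the highest and lowest genes differed 3.47-fold in the alpha ring and 5.08-fold in the beta ring. The 6 ATPase genes of the regulatory particle differed less, with 19.1 FPKM for Psmc6 and 59.2 FPKM for Psmc2, a ratio of 3.11. The 11 non-ATPase genes were the most even in FPKM, with 21.3 FPKM for Psmd14, the deubiquitinase, and 54.6 FPKM for Psmd8, a ratio of 2.56. These ratios and their order depend on the length by which each gene was divided. The lengths implied by counts and FPKM were 3958 bases for Psma2 and 1311 for Psma4, and 4829 for Psmc6 and 1667 for Psmc2. Psmd14 and Psmd8 were alike, at 1707 and 1710 bases. The part of length in the ratios was not tested.

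The low place of Psmb3 is uncertain too. The table's FPKM implies a length of 3391 bases for it, and RefSeq names 7 pseudogenes of Psmb3. Reads of near-identical copies may be split between loci, and over all members RefSeq names 42 pseudogenes for 18 genes. The strand setting of the counting is not given in the sources used here, so reads of overlapping antisense genes cannot be told apart either.

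Assembly chaperones and other accessory factors were measured at 5.86 to 60.3 FPKM. The core chaperones, which pair up to guide the alpha ring together, had 5.86 FPKM for Psmg2, 14.0 FPKM for Psmg3, 16.1 FPKM for Psmg4 and 16.9 FPKM for Psmg1. Psmg1 and Psmg2 act as a pair, but their levels differed 2.88-fold. Psmd5, a chaperone of the ATPase ring, averaged 17.7 FPKM, and Psmf1, which encodes PI31, averaged 18.9 FPKM. Among the alternative activators, Psme1 and Psme2 encode the partner subunits of PA28 and averaged 60.3 and 27.4 FPKM. Psme4, which encodes the large activator PA200, averaged 23.1 FPKM. The lowest members were Psmc3ip at 5.19 FPKM and the pseudogene Psme1-ps1 at 1.96 FPKM, the member that was under 1 FPKM in 1 of the 9 libraries.

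The heat map of proteasome genes by library shows that I/R 1 was low for most members in all the rings. Across the 43 members, 34 had their lowest FPKM in I/R 1, a library that was lowest for 14.0% of all genes in the table. I/R + rapamycin 1 was highest for 19 members and sham 2 for 12, against 12.6% and 11.2% of all genes.

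**Figure D1:**
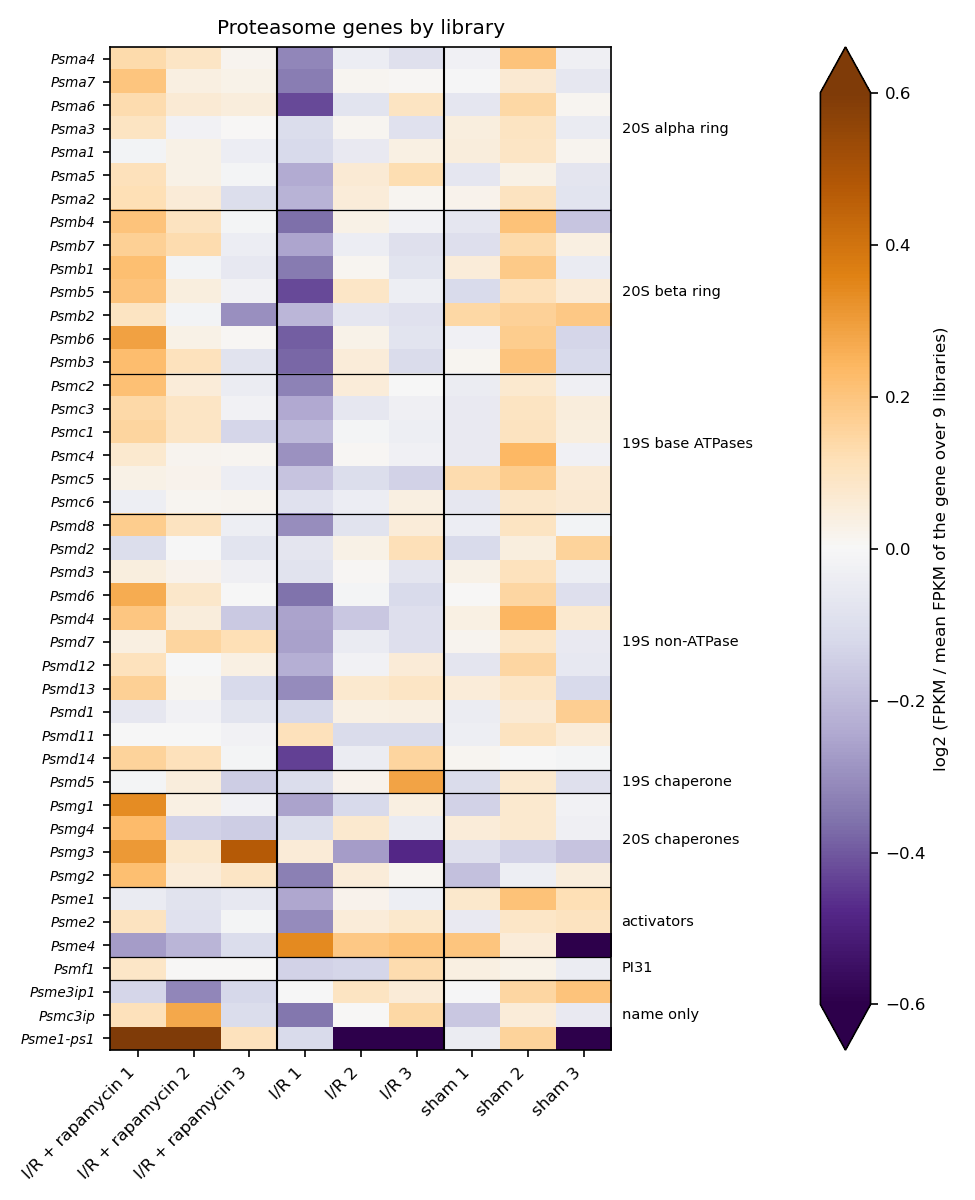
FPKM of the 43 genes (rows, grouped by role) in the 9 libraries (columns), as log2 of the value over the gene's mean across libraries. Colours end at -0.6 and 0.6. The I/R 1 column is low in most rows, while Psme4 and Psmd11 run the other way, with their highest values in I/R 1.

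The summed level of the 40 proteasome genes was 1681, 1581 and 1505 FPKM in the I/R + rapamycin libraries, against 1296, 1526 and 1520 FPKM in I/R libraries and 1522, 1677 and 1525 FPKM in sham libraries. The groups overlap, and I/R 1 was the lowest library. Group means were 1589 ± 88.4 FPKM with I/R + rapamycin, 1447 ± 130.8 FPKM with I/R and 1575 ± 88.4 FPKM with sham (SD, n = 3 each). As a share of all FPKM in the table, the same sums were 0.340%, 0.333% and 0.317% in I/R + rapamycin libraries. They were 0.279%, 0.334% and 0.341% in I/R libraries, and 0.328%, 0.363% and 0.329% in sham libraries. Members spread most in the I/R group, with a median coefficient of variation of 10.1%, against 6.33% with I/R + rapamycin and 5.97% with sham. The I/R group had the largest coefficient for 26 of the 40 genes.

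Within I/R 1 the rings were not equally low. Relative to each gene's mean over the libraries, the median log2 level in I/R 1 was -0.37 for the beta ring, -0.24 for the alpha ring, -0.22 for the ATPases and -0.26 for the non-ATPase subunits. The median over all 40 genes was -0.25 in I/R 1 and 0.01 and -0.02 in the other I/R libraries. In I/R + rapamycin libraries it was 0.13, 0.03 and -0.02, and in sham libraries -0.03, 0.10 and -0.03.

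**Figure D2:**
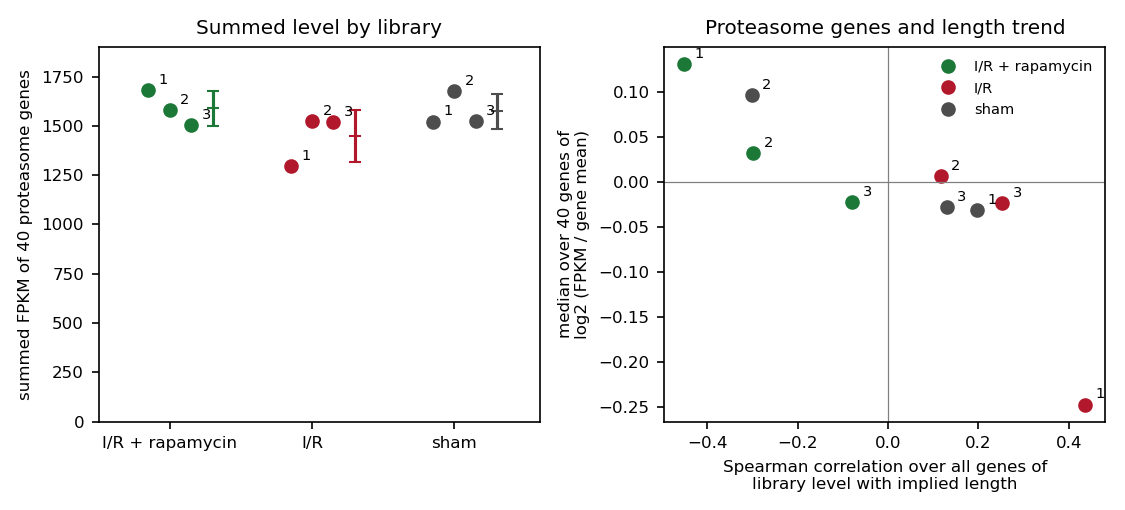
Left, summed FPKM of the 40 proteasome genes in each library (numbered points) with mean and SD of each group. Right, the median log2 level of these genes in a library (vertical) against that library's Spearman correlation, over all genes, between level relative to the gene's mean and implied transcript length (horizontal). I/R 1 is lowest on the left; on the right it has the highest correlation and the lowest median, and I/R + rapamycin 1 has the lowest correlation and the highest median.

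Transcript length moved with these levels. Proteasome messages are short: the length implied by counts and FPKM had a median of 1851 bases for the 40 genes and 3202 bases for all genes. Over 11232 genes, the level of a gene in a library relative to its mean correlated with length at Spearman rho 0.437 in I/R 1, the highest value, and -0.451 in I/R + rapamycin 1, the lowest. The other libraries lay between -0.302 and 0.253. These are descriptions across genes, which are not independent replicates. The part of length-related recovery or RNA quality in the results was not tested, so the median of the 40 genes, and how many lay above 0, are also given below with the trend of fold change on length removed, a setting that gives no test.

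In rapamycin-treated against untreated I/R kidneys, 39 of 43 members had fitted log2 fold changes above 0. No member passed edgeR's quasi-likelihood test at a Benjamini-Hochberg adjusted p of 0.05, a threshold met by 0.127% of all genes. DESeq2 called 1 member, Psmg3, while it called 5.38% of the genes it tested. At an unadjusted edgeR p under 0.05, 10 of 43 members were fitted higher with rapamycin and 0 lower, against 7.11% higher and 9.14% lower among all genes. Library values did not overlap, in CPM, the counts scaled to library size, for 10 members in the higher direction and 2 in the lower, against 11.8% and 12.8% of all genes. The 40 proteasome genes had a median log2 fold change of 0.20 and 37 lay above 0, while the median of all genes tested was 0.01. The members come from the FPKM table, of which 11232 genes were tested. Of these, 1103 were fitted higher and 1094 lower at that unadjusted p. Values did not overlap for 1670 higher and 1474 lower, and their median was 0.03.

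The lean of the members toward higher values was smaller without I/R 1 and with the length trend removed. Without I/R 1, 3 members were fitted higher at an unadjusted edgeR p under 0.05, against 979 of 17335 genes. The median of the 40 genes was then 0.10, with 32 above 0. With the length trend removed it was 0.08, with 31 above 0. With both changes, chosen after seeing the data, it was 0.02 with 22 of 40 above 0. The number of members fitted higher at an unadjusted p under 0.05, 10 over all libraries, was 2 on leaving out I/R + rapamycin 1 or I/R + rapamycin 2, 15 on leaving out I/R + rapamycin 3, and 16 on leaving out I/R 2. The count of 0 in the lower direction was 1 without sham 1 or sham 3. Shares of all genes in those fits are not given here, so these counts show only how they moved with the library left out.

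**Figure D3:**
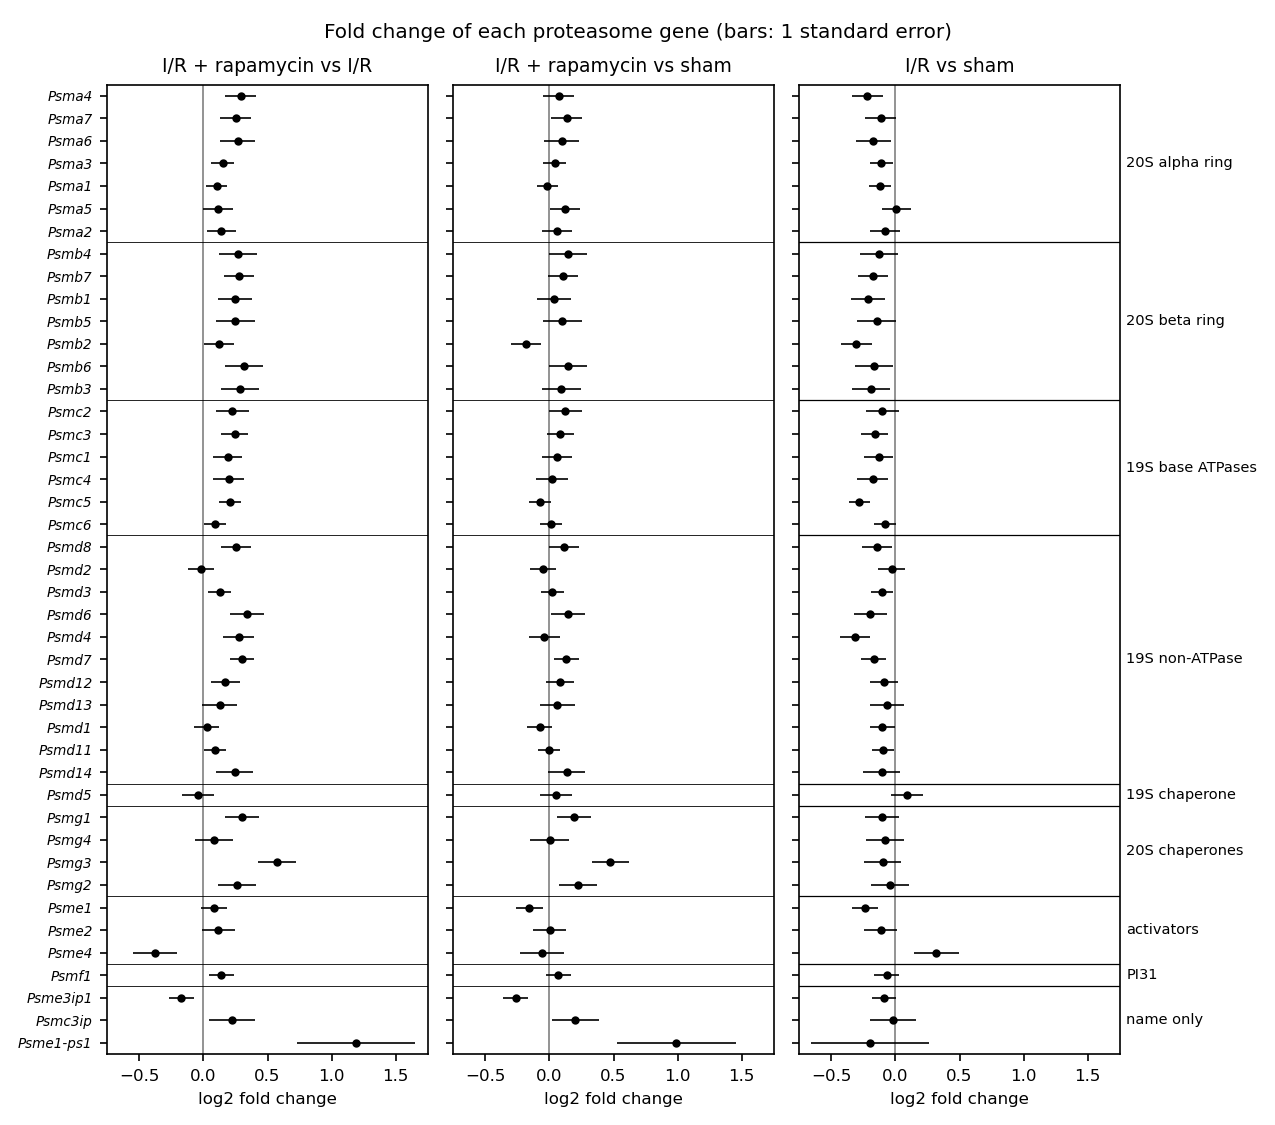
Log2 fold change of each of the 43 genes in the 3 comparisons, by edgeR, with bars of 1 standard error and genes grouped by role. In the left panel 39 of 43 points lie above 0 and in the right panel 3 of 43 do; Psmg3 and Psme4 stand off from their neighbours.

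Psmg3, a chaperone of the core particle, had the largest fitted difference among the 40. It was measured at 17.4, 14.8 and 19.5 FPKM in I/R + rapamycin kidneys, against 14.6, 11.6 and 10.1 FPKM in I/R kidneys and 13.2, 12.7 and 12.4 FPKM in sham kidneys. Every rapamycin value exceeded every value of the other groups, although by little in 1 pair of libraries. The log2 fold change against I/R was 0.57 (SE 0.146), with an adjusted p of 0.130 by edgeR and 0.0196 by DESeq2. Unlike most members, Psmg3 was at its highest I/R value in I/R 1, and without that library its log2 fold change was 0.71 with an adjusted p of 0.111. Over all alternatives tried, the log2 fold change lay between 0.34 and 0.71 and the adjusted p between 0.0196 and 0.381, the last of these without I/R + rapamycin 1. The partner Psmg4 had a log2 fold change of 0.08 (SE 0.149), and Psmg1 and Psmg2 had 0.30 (SE 0.133) and 0.26 (SE 0.148), all with adjusted p over 0.3 by edgeR. Leaving out I/R 1 gave 0.02 for Psmg4, 0.21 for Psmg1 and 0.13 for Psmg2.

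Among subunits of the regulatory particle, Psmd7 had the smallest p. Its protein forms a dimer with the deubiquitinase Psmd14. Psmd7 had 40.9, 44.4 and 43.3 FPKM in I/R + rapamycin kidneys, against 33.3, 38.5 and 37.3 FPKM in I/R kidneys and 40.4, 42.3 and 38.4 FPKM in sham kidneys. Rapamycin and I/R values did not overlap, and sham values overlapped both. The log2 fold change against I/R was 0.30 (SE 0.096, adjusted p 0.185 by edgeR). The lid subunit Psmd6 followed with 0.34 (SE 0.13, adjusted p 0.246), and the ATPase Psmc5 with 0.21 (SE 0.083, adjusted p 0.261). Psmd14 itself had 0.24 (SE 0.142, adjusted p 0.431). The ubiquitin receptor Psmd4 had 0.28 (SE 0.12, adjusted p 0.292). Once I/R 1 was left out, Psmd7, Psmd6, Psmc5, Psmd14 and Psmd4 had 0.22, 0.23, 0.17, 0.08 and 0.21. With the length trend removed they had 0.15, 0.19, 0.15, 0.08 and 0.09, so all 5 values were smaller under either change.

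The catalytic subunits were close to each other. Psmb6, which carries the caspase-like site, had a log2 fold change of 0.32 (SE 0.147), Psmb7, with the trypsin-like site, 0.28 (SE 0.116), and Psmb5, with the chymotrypsin-like site, 0.25 (SE 0.149). Psmb5, the main target of proteasome inhibitor drugs, was measured at 62.8, 56.2 and 53.8 FPKM in I/R + rapamycin kidneys, against 40.7, 57.9 and 53.2 FPKM in I/R kidneys and 50.4, 58.9 and 56.7 FPKM in sham kidneys. The groups overlapped, and I/R 1 was the one low library. Without it Psmb6 had 0.18, Psmb7 0.20 and Psmb5 0.10, and with the length trend removed they had 0.07, 0.07 and 0.02. All 7 beta ring genes and all 7 alpha ring genes had fold changes above 0, with medians of 0.27 and 0.15. With the length trend removed the 2 medians were 0.07 and 0.08. Among the alpha ring, Psma4 had the smallest p, at 0.29 (SE 0.119, adjusted p 0.270), and 0.19 without I/R 1.

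Psme4 ran against the rest. It had 19.2, 19.9 and 21.4 FPKM in I/R + rapamycin kidneys, against 29.3, 26.4 and 26.7 FPKM in I/R kidneys and 26.5, 24.0 and 14.6 FPKM in sham kidneys. Rapamycin and I/R values did not overlap. The sham values were spread widely, with 1 library under all rapamycin values, and the highest of them passed the lowest I/R value in FPKM but not in CPM. The log2 fold change was -0.38 (SE 0.174, adjusted p 0.318 by edgeR). Psme4 has the longest implied transcript of all members, 8403 bases, and the value was -0.21 with the length trend removed. Psme1 and Psme2, the PA28 subunits, had 0.08 (SE 0.102) and 0.12 (SE 0.127), and PI31's Psmf1 had 0.14 (SE 0.0982). Without I/R 1, Psme1, Psme2 and Psmf1 had -0.01, -0.02 and 0.07. The other members with values below 0 were Psmd5 at -0.04 (SE 0.124), which had -0.15 without I/R 1, the regulatory particle scaffold Psmd2 at -0.02 (SE 0.104) and Psme3ip1 at -0.17 (SE 0.0966). The pseudogene Psme1-ps1 had the largest value of all, 1.19 (SE 0.463, adjusted p 0.254), at levels near 1 to 3 FPKM.

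**Figure D4:**
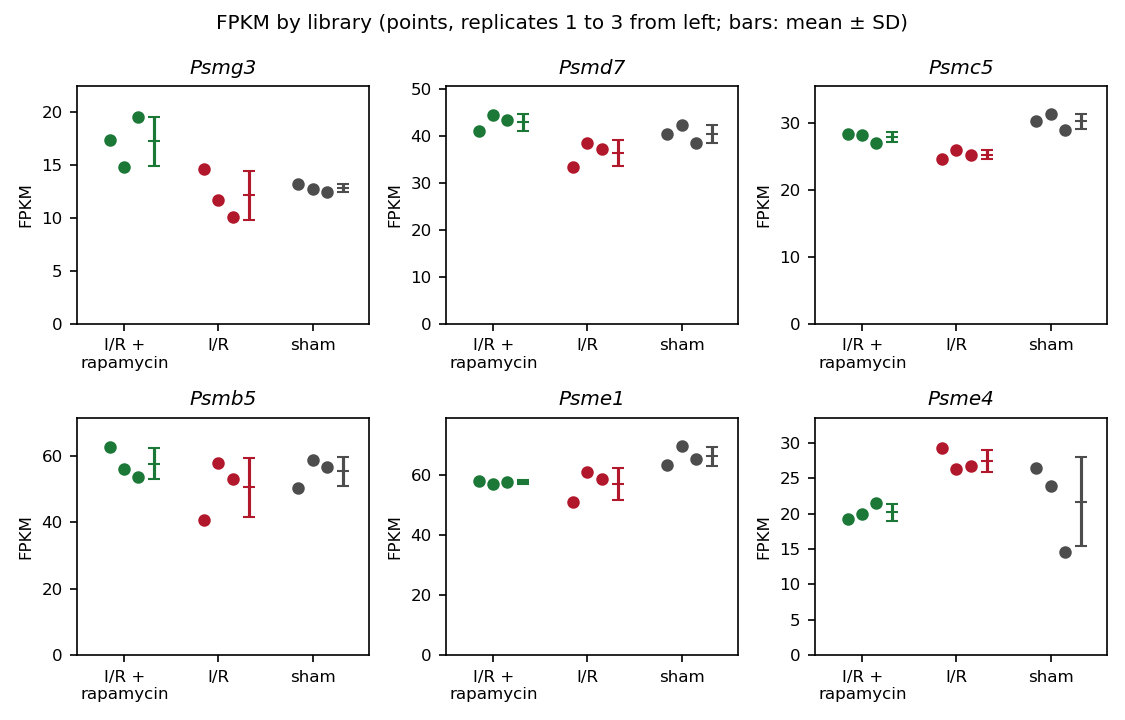
FPKM of 6 members in each library, with mean and SD of each group. Psmg3 is highest in all rapamycin libraries, Psmc5 is lowest in all I/R libraries, Psme1 is highest in all sham libraries, Psmb5 and Psmd7 have their lowest value in I/R 1, and Psme4 is high in I/R with a single low sham library.

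Set against sham, rapamycin-treated I/R kidneys gave smaller fitted differences in most proteasome genes, in both directions. edgeR called 0 members, against 0.156% of all genes, and DESeq2 called 0, against 3.2% of all genes. At an unadjusted edgeR p under 0.05, 1 member, Psmg3, was fitted higher and 1, Psme3ip1, lower, against 6.06% and 7.75% of all genes. Values did not overlap for 2 members in each direction, against 9.69% higher and 9.65% lower among all genes. Of the 11232 tested genes of the FPKM table, 804 were fitted higher and 889 lower at that unadjusted p, and values did not overlap for 1156 and 1082. The median log2 fold change of the 40 genes was 0.07, with 31 above 0. The median of all genes was 0.00, and that of the tested FPKM table genes 0.01. For the 40 genes it was 0.02 with the length trend removed, with 25 above 0. The median lay between 0.02 without sham 1 and 0.14 without sham 2, so it also rested on single libraries. The counts of 1 were 2 higher without I/R + rapamycin 3 or sham 2, and 0 lower without I/R + rapamycin 2 or sham 2. The matching shares of all genes in those fits are not given here.

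Psmg3 again led, with a log2 fold change of 0.47 (SE 0.146), an adjusted p of 0.204 by edgeR and 0.0937 by DESeq2. Next among the chaperones, Psmg2 had 0.22 (SE 0.148) and Psmg1 0.19 (SE 0.133). Psme1 had 58.2, 57.0 and 57.8 FPKM in I/R + rapamycin kidneys and 50.9, 61.1 and 58.7 FPKM in I/R kidneys, against 63.5, 69.8 and 65.4 FPKM in sham kidneys. Rapamycin values of Psme1 lay within the I/R range and under all sham values, and the fitted log2 value against sham was -0.16 (SE 0.102, adjusted p 0.536). Psmb2, a beta ring subunit, had -0.18 (SE 0.118, adjusted p 0.534). The catalytic Psmb5, Psmb6 and Psmb7 had 0.10, 0.15 and 0.10, with standard errors between 0.116 and 0.149.

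I/R kidneys without rapamycin were compared with sham kidneys to ask what the injury itself did. edgeR called 0 members, against 0.0577% of all genes, and DESeq2 called 0, against 1.32%. At an unadjusted edgeR p under 0.05, 0 members were fitted higher and 4 lower, namely Psmc5, Psmd4, Psmb2 and Psme1, against 4.83% and 4.59% of all genes. Values did not overlap for 1 member higher and 4 lower, against 7.43% and 7.19% of all genes. Of the 11232 tested genes of the FPKM table, 561 were fitted higher and 633 lower at that unadjusted p, and values did not overlap for 822 and 929. The median log2 fold change of the 40 genes was -0.12, with 3 above 0. The median of all genes was 0.00, and that of the tested FPKM table genes -0.01. Without I/R 1 the median of the 40 genes was -0.03, with 14 above 0. In that fit 1 member, Psmc5, was lower at an unadjusted edgeR p under 0.05, against 874 of 17335 genes. The median was -0.19 without I/R 2, -0.18 without sham 1 and -0.07 without sham 2. The count of 4 was 8 without I/R 2, 1 without sham 2 and 2 without sham 3, fits for which shares of all genes are not given here. With the length trend removed the median was -0.06, with 7 above 0. This comparison shares its I/R libraries with the first and its sham libraries with the second, so the 3 sets of fold changes are not independent.

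Psmc5, an ATPase of the base, kept a similar value under those changes. It had 28.4, 28.2 and 27.0 FPKM in I/R + rapamycin kidneys and 24.6, 25.9 and 25.3 FPKM in I/R kidneys, against 30.4, 31.4 and 29.1 FPKM in sham kidneys. In FPKM the 3 groups did not overlap, with I/R lowest, I/R + rapamycin between and sham highest; in CPM, I/R + rapamycin and sham overlapped. The log2 fold change of I/R against sham was -0.28 (SE 0.083, unadjusted p 0.00642, adjusted p 0.311 by edgeR). It was -0.24 without I/R 1 and -0.25 with the length trend removed. Psmb2 had 46.4, 51.2 and 50.5 FPKM in I/R kidneys, against 59.2, 59.9 and 61.1 FPKM in sham kidneys, with -0.30 on the log2 scale (SE 0.118, adjusted p 0.461). The ubiquitin receptor Psmd4 had -0.32 (SE 0.12, adjusted p 0.448), and Psme1 had -0.24 (SE 0.102, adjusted p 0.508). On leaving out I/R 1, Psmb2 had -0.24, Psmd4 -0.26 and Psme1 -0.15. Psme4 was again opposite at 0.32 (SE 0.174, adjusted p 0.616). Psmd5 and Psma5 were the other genes above 0, at 0.09 (SE 0.124) and 0.01 (SE 0.116).

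Fold change and implied length were related across all genes in each comparison. Spearman's rho over 11232 genes was -0.483 for I/R + rapamycin against I/R, -0.256 for I/R + rapamycin against sham and 0.304 for I/R against sham. Over the 43 members the same values were -0.478, -0.398 and 0.379 on the signed fold changes. The shortest member, Psmg4 at 607 bases, had values of 0.08, 0.00 and -0.08 in the 3 comparisons. Psmg3, whose implied length is 973 bases, lay at 0.34 against I/R after the trend was removed, and Psme4 lay at the long end.

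**Figure D5:**
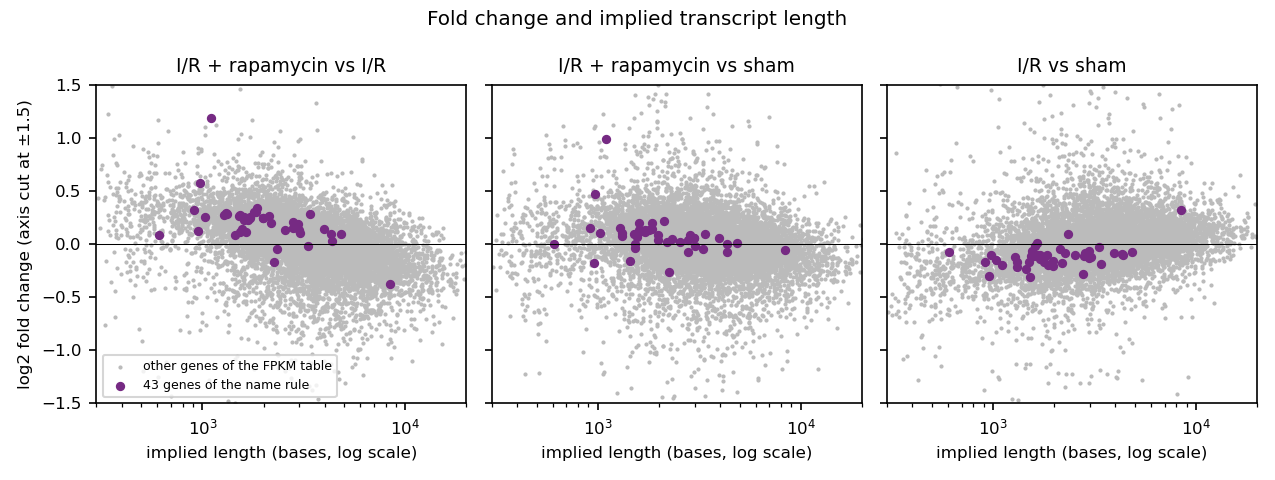
Log2 fold change (vertical, cut at ±1.5) against implied transcript length (horizontal, log scale) for all genes of the FPKM table (grey) and the 43 members (purple). The members sit on the short side of the cloud and follow its slope, with Psme1-ps1 and Psmg3 above the other members in the left and middle panels.

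Proteasome genes that the name rule does not take were read beside the members. Of 7 measured genes, edgeR and DESeq2 called 0 in any comparison. At an unadjusted edgeR p under 0.05, 3 (Psmb8, Pomp and Sem1) were fitted higher with rapamycin than with I/R, beside 7.11% of all genes. Without I/R 1 the count was 1, beside 979 of 17335 genes. The immunoproteasome subunit Psmb8 had 7.42, 6.32 and 9.20 FPKM in I/R + rapamycin kidneys, against 5.72, 5.48 and 5.76 FPKM in I/R kidneys and 6.07, 7.03 and 7.14 FPKM in sham kidneys. Its log2 fold change against I/R was 0.50 (SE 0.149, adjusted p 0.169 by edgeR). Psmb9, the other immunoproteasome subunit of the table, had -0.12 (SE 0.178). Pomp, which escorts the beta subunits into the ring, had 0.32 (SE 0.126), the small lid subunit Sem1 0.32 (SE 0.119), and the ubiquitin receptor Adrm1 0.15 (SE 0.102). Without I/R 1, Pomp and Sem1 each had 0.20, and with the length trend removed they had 0.29 and 0.06. In I/R against sham, Sem1 had -0.30 (SE 0.119, adjusted p 0.481), and -0.19 without I/R 1.

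The peptide transporter genes Tap1 and Tap2, which share the antigen presentation route with the immunoproteasome, had values below 0 against I/R, as Psmb9 had and Psmb8 had not. Tap2 had 4.97, 3.79 and 4.57 FPKM in I/R + rapamycin kidneys, against 7.34, 11.4 and 10.9 FPKM in I/R kidneys and 6.82, 8.81 and 6.62 FPKM in sham kidneys. Rapamycin values were under all values of both other groups, and relative to I/R the log2 difference was -1.10 (SE 0.202), with an adjusted p of 0.0879 by edgeR and 0.000117 by DESeq2. Tap1 had -0.51 (SE 0.159, adjusted p 0.179 by edgeR) in that comparison and 0.54 (SE 0.159, adjusted p 0.311) in I/R against sham. The other genes measured on the interferon and class I presentation list lay above 0 against I/R. Irf1 had 0.30 (SE 0.198), B2m 0.10 (SE 0.116) and Tapbp 0.01 (SE 0.193). Of the 5 genes measured on that list, edgeR called 0 in any comparison over all 9 libraries, while DESeq2 called Tap2 in both comparisons with rapamycin. Without I/R 1, edgeR called Tap2 in I/R + rapamycin against I/R, at -1.29 with an adjusted p of 0.0216.

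The regulators of proteasome genes had fitted values below 0 in I/R + rapamycin against I/R, although not all by much. Nfe2l1 had 26.7, 25.7 and 26.9 FPKM in I/R + rapamycin kidneys, against 34.7, 30.4 and 33.9 FPKM in I/R kidneys and 30.7, 25.1 and 34.4 FPKM in sham kidneys. Rapamycin and I/R values did not overlap, and the fitted log2 value was -0.25 (SE 0.105, adjusted p 0.280 by edgeR). Ddi2, the protease that cleaves and so activates Nrf1, had -0.45 (SE 0.201, adjusted p 0.313) against I/R and 0.53 (SE 0.201, adjusted p 0.455) in I/R against sham. Leaving out I/R 1 made both Ddi2 values larger in size, at -0.64 and 0.72 (adjusted p 0.178 and 0.159 by edgeR). In that fit Nfe2l1 had -0.23 against I/R. All 4 measured regulators lay below 0 against I/R, but Nfe2l2 at -0.05 (SE 0.0942) and Ngly1 at -0.03 (SE 0.109) were within 1 standard error of 0. In I/R + rapamycin against sham, 2 of the 4 lay above 0. For these regulators edgeR and DESeq2 called 0 in any comparison. Among 6 genes for ubiquitin and its activation, also with 0 called by edgeR or DESeq2, Ubb had -0.47 (SE 0.17, adjusted p 0.263) in I/R + rapamycin against sham. Of 13 proteasome-bound enzymes and shuttle factors, edgeR and DESeq2 called 0, and the median against I/R was -0.01. Ubqln1, a shuttle for ubiquitinated proteins, had -0.23 (SE 0.0864, adjusted p 0.450) in I/R against sham.

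Promoter sequences were read for the members because Nrf1 binds the antioxidant response element. RefSeq promoters of the GRCr8 assembly, 250 bases before to 50 after the gene start, were matched to 36 of the 40 proteasome genes. The core TGACNNNGC, on either strand, stood in 7 of the 36 promoters (19.4%) and in 12.2% of all 27457 promoters. The 7 genes were Psmb5, Psmb2, Psmb6, Psmd3, Psma3, Psme4 and Psmd1. CCAAT, on either strand, stood in 16 (44.4%) and in 37.7% of all. The interferon-type letters GAAANNGAA stood in 7 (19.4%), against 9.5% of all, and the heat shock letters GAANNTTC in 2 (5.56%), against 8.34%. Matches are descriptions of letters, not of binding.

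The following promoters are shown for the beta ring genes with an antioxidant response core, for Psmg3, which had the largest difference, and for Psme4, whose values ran the other way. Letters are in capitals where they match the antioxidant response core or CCAAT on either strand. The Psmb5 window is chr15:32047330-32047629, minus strand, and its match starts at position -60 from the gene start.
Psmb5: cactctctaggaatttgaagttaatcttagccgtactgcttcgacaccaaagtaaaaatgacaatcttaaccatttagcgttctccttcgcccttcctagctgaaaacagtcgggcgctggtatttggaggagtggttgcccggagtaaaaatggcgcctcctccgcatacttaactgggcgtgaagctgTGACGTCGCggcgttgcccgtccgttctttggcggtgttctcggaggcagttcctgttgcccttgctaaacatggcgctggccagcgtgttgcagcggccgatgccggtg
The Psmb6 window is chr10:55737638-55737937, plus strand, with the match at position -24.
Psmb6: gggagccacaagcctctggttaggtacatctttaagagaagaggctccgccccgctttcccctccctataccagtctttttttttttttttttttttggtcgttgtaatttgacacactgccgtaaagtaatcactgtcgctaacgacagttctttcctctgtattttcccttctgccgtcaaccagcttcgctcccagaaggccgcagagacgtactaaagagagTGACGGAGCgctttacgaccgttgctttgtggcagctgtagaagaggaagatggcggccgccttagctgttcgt
The Psmb2 window is chr5:144254808-144255107, plus strand, where the core at position -68 shares its first base with the last base of a CCAAT match.
Psmb2: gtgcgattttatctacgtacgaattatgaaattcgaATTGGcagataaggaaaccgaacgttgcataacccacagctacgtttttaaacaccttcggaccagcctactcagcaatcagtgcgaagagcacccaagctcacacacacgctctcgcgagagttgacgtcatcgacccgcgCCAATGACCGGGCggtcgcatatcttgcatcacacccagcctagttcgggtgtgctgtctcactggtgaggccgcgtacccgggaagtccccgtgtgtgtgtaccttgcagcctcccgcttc
The Psmg3 window is chr12:19923038-19923337, plus strand, which holds a CCAAT match on the other strand at position -150 and no antioxidant response core.
Psmg3: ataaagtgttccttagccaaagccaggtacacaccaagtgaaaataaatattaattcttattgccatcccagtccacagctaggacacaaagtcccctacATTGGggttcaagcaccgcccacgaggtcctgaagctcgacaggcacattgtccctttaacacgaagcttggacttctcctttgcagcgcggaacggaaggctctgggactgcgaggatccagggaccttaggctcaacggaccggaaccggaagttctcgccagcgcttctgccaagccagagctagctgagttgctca
The Psme4 window is chr14:108706393-108706692, plus strand, with an antioxidant response core on the other strand at position -55.
Psme4: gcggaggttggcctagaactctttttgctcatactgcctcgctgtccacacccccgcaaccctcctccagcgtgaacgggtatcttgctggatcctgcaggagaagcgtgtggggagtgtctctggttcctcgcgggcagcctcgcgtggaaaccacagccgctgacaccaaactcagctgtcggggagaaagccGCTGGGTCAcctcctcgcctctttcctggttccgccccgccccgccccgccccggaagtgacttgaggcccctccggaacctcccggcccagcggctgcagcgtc
Of the 5 genes, Psmb5, Psmb6 and Psmb2 have the core and had log2 fold changes of 0.25, 0.32 and 0.12 for I/R + rapamycin against I/R. Psme4 has the core too and had -0.38, while Psmg3 lacks it in this window and had 0.57. The other genes with the core, Psmd3, Psma3 and Psmd1, had 0.13, 0.15 and 0.03. Psmg3 and Psme4 were shown because of their fold changes, so the 5 genes are not a fair sample of genes with and without the core. A link between the core and fold change was not tested.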

How the data were processed

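RNA was sequenced from 9 rat kidney libraries, 3 in each of 3 groups. Per the submitters' processing notes, the tools named are cutadapt, HISAT2, StringTie and DESeq2 and the build is Rnor_6.0; their roles, versions and strand setting are not given there. The authors deposited raw counts per gene (30454 genes) and an FPKM table (11235 genes), in which every gene has 1 FPKM or more in 8 libraries or all 9.

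Counts as deposited were tested in R 4.3.3 with edgeR 4.0.16 (TMM normalization, filterByExpr, robust quasi-likelihood fit over all 9 libraries, no covariates), with Benjamini-Hochberg adjustment over all 17335 genes kept and a threshold of 0.05. Standard errors are the fold change over the square root of F. DESeq2 1.42.0, limma 3.58.1 on log2(FPKM + 1) and log2(FPKM + 0.1), other factors and filters, a replicate block, removal of the length trend and leaving out libraries were alternatives. Implied length is the ratio of deposited counts, scaled to library size, to FPKM. The edgeR step was also run on counts simulated without a length trend or an outlying library. Its outcome is not given here and does not cover those features of the data.

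The deposited FPKM values give levels. Members and lists were chosen with earlier results of these data known. Named genes were, per comparison, up to 6 members in each direction with the smallest p, plus catalytic, accessory and regulator genes. Within-group pairs of libraries differed beyond sampling noise (chi-square over degrees of freedom 33.7 or more), so none was counted as a duplicate.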

Additional observations from a re-analysis of the deposited data

How the results depend on the processing

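No alternative changed the edgeR call of a member: 0 of the 43 were called in all 3 comparisons under every edgeR and limma setting, and 1, Psmg3 in I/R + rapamycin against I/R (log2 fold change 0.574), under DESeq2. The number of all genes called, 22, 27 and 10 for I/R + rapamycin against I/R, I/R + rapamycin against sham and I/R against sham, was 702, 567 and 234 with DESeq2; 14, 15 and 18 with limma on log2(FPKM + 1); 13, 15 and 16 with limma on log2(FPKM + 0.1); and 128, 104 and 67 without I/R 1 and sham 3 together. With only the 6 libraries compared it was 6 for I/R + rapamycin against I/R and 2 for I/R against sham. Leaving out 1 library in turn gave 0 to 47, 3 to 47 and 0 to 36 genes, the highest each time without I/R 1. With a replicate block it was 1, 7 and 1, with 0 members. The numbers do not pair the libraries: deviations from group means of same-numbered libraries correlated between -0.213 and 0.136. The median of the 40 proteasome genes for I/R + rapamycin against I/R was 0.0182 without I/R 1 with the length trend removed, a setting chosen after seeing the data.

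Of 1748 values of named members under alternatives, 130 changed sign, 28 of them by more than 1 standard error in settings with the length trend removed, which give no test, and 9 by more than 1 standard error in settings with a test. Those 9 all lacked I/R 1. For I/R + rapamycin against I/R, Psme2 had -0.016 without I/R 1 and -0.0159 without I/R 1 and sham 3. For I/R against sham, without I/R 1, Psmb5 had 0.00282, Psmd14 0.0528 and Psme2 0.0155; without I/R 1 and sham 3, they had 0.0218, 0.0495 and 0.0446, and Psmg2 had 0.138. Leaving out 1 library each, these values ranged from -0.016 to 0.204 for Psme2 in the first comparison and, in I/R against sham, -0.292 to 0.00282 for Psmb5, -0.233 to 0.0528 for Psmd14 and -0.202 to 0.0155 for Psme2. The cause was not tested. At 1 FPKM or more in all 9 libraries, 42 of the 43 members remained. With 3 libraries a group, differences of the size fitted here, mostly under 0.3 on the log2 scale, were near the spread between libraries.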
